A study of Mus musculus with 2 samples.

Results

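Aquaporins and carbonic anhydrases were followed across nuclei from the colon of mice with chronic colitis, of WT or HIF-1α KO genotype. The set was chosen by gene family and held 9 of the 32285 genes in the count tables, 4 aquaporins (Aqp1, Aqp3, Aqp4 and Aqp8) and 5 carbonic anhydrases (Car1, Car2, Car4, Car8 and Car12). All 9 symbols were found in the tables of both libraries. The mice were 8 to 12 weeks old and drank 2% dextran sodium sulfate (DSS), which injures the colonic epithelium, in 4 cycles of 3 days with 4 days of recovery, so both groups carried the injury. HIF-1α KO mice (Ncr1cre+ Hif-1αfl+/fl+) lack HIF-1α in cells with NKp46, the product of Ncr1, because the Ncr1 promoter drives Cre in natural killer cells and some other innate lymphoid cells, and the WT mice were littermates. Epithelial cells are not a target of this deletion by design. Each genotype was represented by 1 library of single nuclei, made from the frozen colons of 3 pooled animals, so no difference between genotypes had a replicate check and no test was made.

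Aquaporins are membrane channels for water, and carbonic anhydrases catalyze the reversible hydration of carbon dioxide to bicarbonate and a proton. In the colon the proton and the bicarbonate feed sodium-hydrogen and chloride-bicarbonate exchangers, which take up salt from the lumen, and water follows. The epithelium renews from stem cells at the crypt base, and its cells mature as they move up to the luminal surface, so the place of a transporter on this axis tells which stage of maturation carries it.

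The promoters of Car4 and Aqp8, whose levels followed each other most closely among the members, are set beside that of Car12, which had the opposite course from crypt base to surface. RefSeq promoter sequences of GRCm38.p6 were matched for 5 of the 9 members. For each gene the 250 bases before the start are given 5′ to 3′ on the strand of the gene. Capitals mark the searched motifs on either strand. These were the core of the hypoxia response element (ACGTG, or with its other first base GCGTG), the TCF/LEF motif (CTTTGAT), the CDX motif in both of its spellings (TTTATG, or else TTTATA) and the GATA motif (AGATAA).
Aqp8, chr7:123462044-123462293, plus strand: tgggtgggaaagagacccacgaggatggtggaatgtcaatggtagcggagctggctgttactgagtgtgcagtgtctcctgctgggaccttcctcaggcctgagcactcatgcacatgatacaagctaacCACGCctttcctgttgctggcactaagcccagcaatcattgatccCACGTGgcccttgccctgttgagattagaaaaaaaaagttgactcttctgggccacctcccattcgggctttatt
Car4, chr11:84957504-84957753, plus strand: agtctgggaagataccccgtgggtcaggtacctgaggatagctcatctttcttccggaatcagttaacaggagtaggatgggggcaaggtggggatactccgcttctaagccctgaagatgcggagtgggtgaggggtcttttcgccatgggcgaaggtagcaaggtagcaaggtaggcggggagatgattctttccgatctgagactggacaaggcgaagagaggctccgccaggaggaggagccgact
Car12, chr9:66713436-66713685, plus strand: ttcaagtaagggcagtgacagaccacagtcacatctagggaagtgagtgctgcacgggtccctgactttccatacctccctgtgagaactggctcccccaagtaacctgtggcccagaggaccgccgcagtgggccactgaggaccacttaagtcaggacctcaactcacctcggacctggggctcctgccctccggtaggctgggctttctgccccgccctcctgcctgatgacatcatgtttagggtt
The Aqp8 window held the hypoxia response core at 3 positions, starting 120, 75 and 74 bases before the start. The last 2 overlap, because CACGTG holds the core on both strands. None of the searched motifs was found in the Car4 and Car12 windows. The hypoxia response core is found in 38.6% of all 32851 promoter windows of this length, and the other motifs in 3.21% (TCF/LEF), 20.9% (CDX) and 9.99% (GATA). These matches describe letters, and no binding was measured. The G and C content was 52.4% for Aqp8, 56.4% for Car4 and 59.2% for Car12, against a median of 52.4% over all promoters.

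Each count in the deposited tables is 1 unique molecular identifier (UMI), the tag of a captured RNA molecule, for a gene in a nucleus. The WT library held 13492810 and the HIF-1α KO library 25489277 UMIs. After the filter on nuclei, 4884 WT and 4702 HIF-1α KO nuclei remained, with medians of 2058.5 and 4197 UMIs, and 3 barcodes occurred in both libraries. Hif1a had 172 and 199 counts per 1000000 UMIs (CPM), and Ncr1 had 1 and 0 UMIs (a count of 0 allows up to 3), so the deletion could not be checked in these nuclei. The nuclei fell into 24 clusters, made without the members, of which 20 were named from marker genes (a name ending in -like means a resemblance). Of the 4 unnamed clusters, the one led by Apol10a and Tgm3 lay next to the surface and is described under these genes. The other 3 held 27.4% of the WT library and, for HIF-1α KO, 12.5%, and are not described here.

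A level is the sum of UMIs in a class, as CPM of all UMIs in that class, and the range after it is the exact 95% Poisson interval. Ratios are log2 ratios of such sums with exact conditional intervals. All intervals cover counting error only. RNA set free from broken nuclei puts UMIs of abundant genes into every droplet, so each level is given beside that in mesenchymal-like nuclei (smooth muscle- and fibroblast-like, 505 WT and 247 HIF-1α KO nuclei), which should lack the epithelial members. A level is called above background where the interval of its log2 ratio over mesenchymal-like nuclei lies above 0, and is read as background otherwise. The estimate of free RNA, with all nuclei put at 100%, was 39.2% in WT and 51.9% in HIF-1α KO mesenchymal-like nuclei. It was 40.4% and 47.9% in crypt base stem-like nuclei. In the cluster led by Apol10a and Tgm3 it was 26.3% and 30.2%, and in goblet-like nuclei 26.0% and 27.0%. Mesenchymal-like levels may overstate the background there, so a level read as background does not show absence.

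Along the absorptive axis the classes were ordered by the log2 ratio of surface over stem cell markers, which hold no member. It was -1.04 in WT and -0.08 in HIF-1α KO in crypt base stem-like nuclei (212 WT and 230 HIF-1α KO), and 5.49 and 6.30 in surface colonocyte-like nuclei (258 WT and 452 HIF-1α KO). Between them came cycling-like (470 WT and 325 HIF-1α KO), crypt enterocyte-like (376 WT and 478 HIF-1α KO) and Gsdmc/Cyp2c enterocyte-like nuclei (267 WT and 323 HIF-1α KO). The last carry gasdermin C and cytochrome P450 genes. Then came the cluster led by Apol10a and Tgm3 (369 WT and 587 HIF-1α KO). The ratio was 0.78 in WT and 1.62 in HIF-1α KO crypt enterocyte-like nuclei, and 2.15 and 2.70 in Gsdmc/Cyp2c enterocyte-like nuclei. Nuclei outside the epithelium were in the same range, at 0.87 and 1.58 in smooth muscle-like and 2.09 and 3.13 in fibroblast-like nuclei. The part of free RNA in the order of the middle classes was not tested.

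From the crypt base to the surface, 3 members were at least 2-fold higher in both libraries (Car4, Aqp8 and Car1) and 3 were at least 2-fold lower (Car12, Aqp4 and Car8), among the 7 with at least 50 UMIs in these classes. Of all 8898 genes that met this minimum, 12.1% were as much higher and 20.2% as much lower. Car8 in WT rests on 9 UMIs at the base and 5 at the surface, and its levels at the base, 17.0 and 28.2 CPM in WT and HIF-1α KO, were not above the 22.3 and 18.4 CPM of mesenchymal-like nuclei, which serve as background. With cycling-like nuclei as the crypt end, 1 of the 3 lower members (Aqp4) stayed at least 2-fold lower in both libraries. Car2 was 3.39-fold higher at the surface in WT and 1.31-fold in HIF-1α KO, and so passed 2-fold in WT only. Car4, Aqp8 and Car1 had their highest level at the surface and Aqp4 in the middle of the axis, in both libraries. Car12 was highest at the base in WT, whereas in HIF-1α KO its first 5 classes did not differ beyond their intervals.

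**Figure D1:**
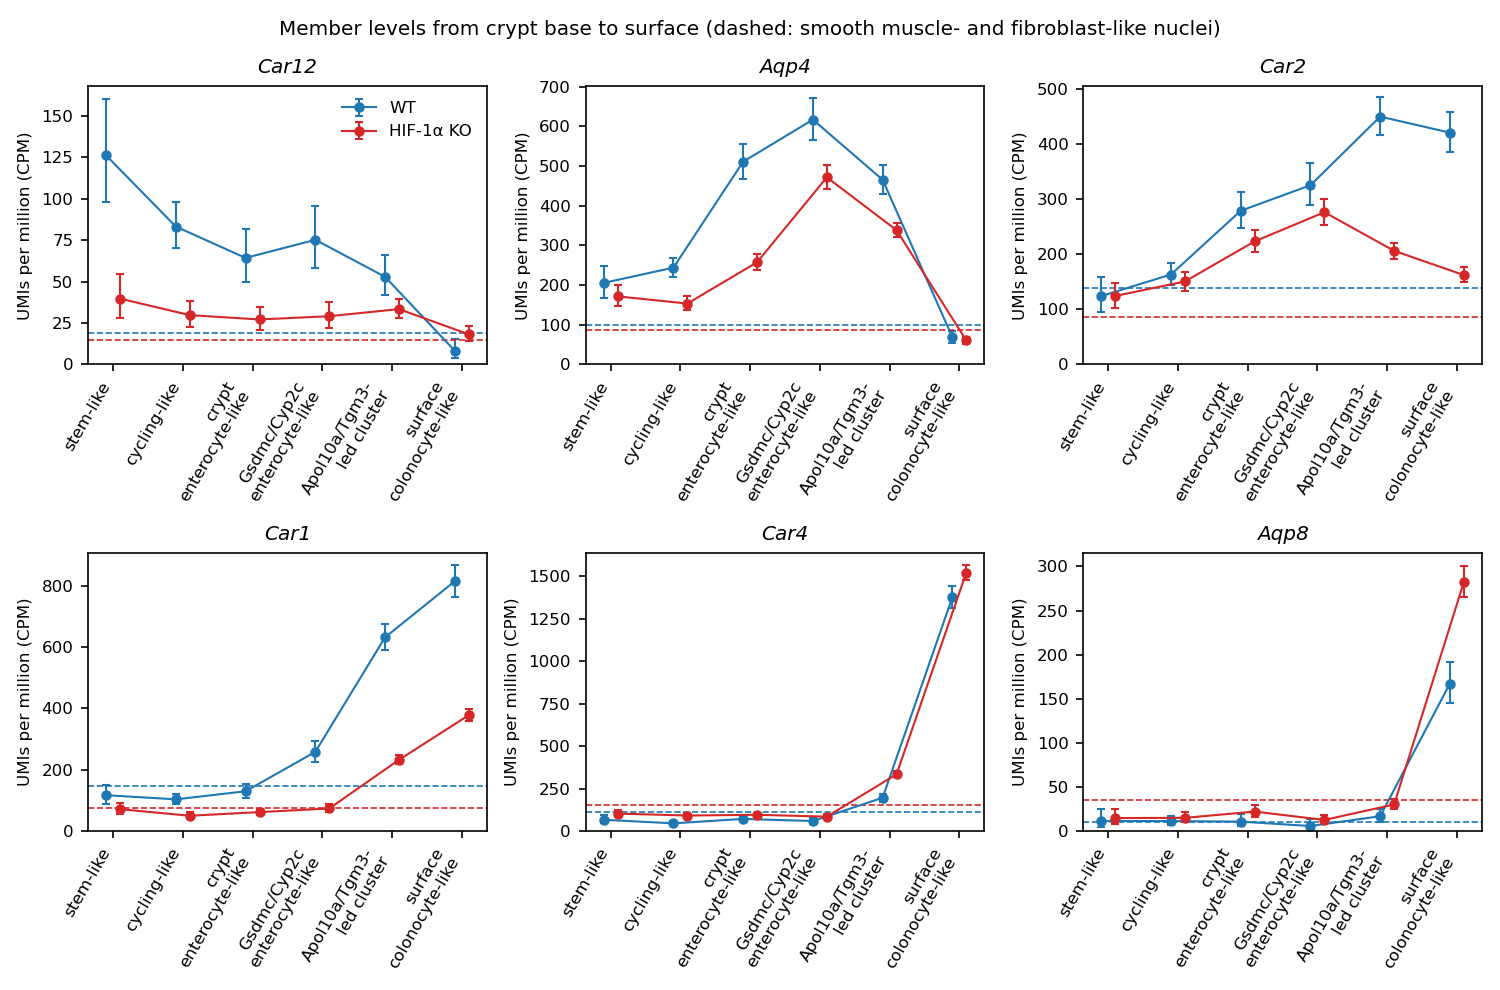
Level of 6 members in counts per 1000000 UMIs (CPM, y axis) in the classes from crypt base to surface (x axis), for the WT (blue) and HIF-1α KO (red) library, with exact 95% Poisson intervals and the level in mesenchymal-like nuclei as dashed lines. Car12 was highest in WT stem-like nuclei (126 CPM), Aqp4 in Gsdmc/Cyp2c enterocyte-like nuclei (617 and 471 CPM), and Car1, Car4 and Aqp8 in surface colonocyte-like nuclei.

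Car4 (chromosome 11, 84957786 to 84966044 of GRCm38), an enzyme anchored to the outer face of the apical membrane, had 1378 CPM (1312 to 1445) in WT and 1523 CPM (1481 to 1565) in HIF-1α KO surface colonocyte-like nuclei. This class held 58.7% and 62.2% of all Car4 UMIs of the library. In the cluster led by Apol10a and Tgm3 Car4 had 196 CPM (173 to 220.0) and 334 CPM (316 to 353). From crypt base stem-like to Gsdmc/Cyp2c enterocyte-like nuclei it lay between 44.9 and 71.0 CPM in WT and between 84.3 and 103 CPM in HIF-1α KO, below the 109 and 156 CPM of mesenchymal-like nuclei. Among the 6 groups of the axis, Car4 was thus above background in the upper 2. A Car4 UMI was found in 81.4% (76.1 to 86.0%, exact binomial interval) of WT and 92.9% (90.2 to 95.1%) of HIF-1α KO surface nuclei, with median depths of 4175 and 6133 UMIs. In mesenchymal-like nuclei, with medians of 1930 and 2287 UMIs, the shares were 18.4% and 37.2%. With every nucleus thinned to 1000 UMIs, they were 58.9% and 64.6% at the surface and 9.50% and 20.0% in mesenchymal-like nuclei.

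Aqp8 (chromosome 7, 123462291 to 123468004), a water channel known from the apical side of colonocytes, was above background at the surface and in none of the other 5 groups of the axis. It had 167 CPM (145 to 192) in WT and 282 CPM (265 to 301) in HIF-1α KO surface nuclei, which held 54.9% and 68.0% of its UMIs. In the cluster led by Apol10a and Tgm3 it had 16.7 CPM (10.7 to 24.9) and 30.03 CPM (24.8 to 36.0), not apart from the 9.93 CPM (5.13 to 17.3) and 35.6 CPM (23.8 to 51.1) of mesenchymal-like nuclei. The step between that cluster and the surface was 10.0-fold in WT and 9.41-fold in HIF-1α KO for Aqp8 (log2 3.32 and 3.23), against 7.04-fold and 4.56-fold for Car4. At 1000 UMIs per nucleus, 13.2% of WT and 21.0% of HIF-1α KO surface nuclei had an Aqp8 UMI, against 0.990% and 6.25% of mesenchymal-like nuclei.

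Car1 (chromosome 3, 14766216 to 14808368), a cytosolic enzyme that is also abundant in red cells, was above background in a wider part of the axis. It had 815 CPM (765 to 868) in WT and 378 CPM (358 to 399) in HIF-1α KO surface nuclei, and 632 CPM (592 to 675) and 232 CPM (217 to 248) in the cluster led by Apol10a and Tgm3. In Gsdmc/Cyp2c enterocyte-like nuclei the WT library still had 258 CPM (226 to 294), above the 146 CPM (126 to 169.6) of mesenchymal-like nuclei. The HIF-1α KO library had 73.4 CPM (61.7 to 86.5) there, at its mesenchymal-like level of 76.1 CPM (58.3 to 97.5). In stem-like, cycling-like and crypt enterocyte-like nuclei Car1 was at background in both libraries, between 103 and 129.6 CPM in WT and between 49.6 and 71.1 CPM in HIF-1α KO.

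Car2 (chromosome 3, 14886273 to 14900770), the other cytosolic enzyme and the neighbor of Car1 on the opposite strand, had a broad course. In WT it was at background in stem-like nuclei, at 124 CPM (96.2 to 158) beside 138 CPM in mesenchymal-like nuclei. It had 279 CPM (248 to 313) in WT crypt enterocyte-like, 326 CPM (289 to 365) in Gsdmc/Cyp2c enterocyte-like, 451 CPM (417 to 487) in the cluster led by Apol10a and Tgm3 and 421 CPM (386 to 459.6) in surface nuclei, and the intervals of the last 2 overlapped. In HIF-1α KO stem-like nuclei it had 124 CPM (103 to 149), a log2 ratio of 0.52 (0.08 to 0.96) over mesenchymal-like nuclei. This library had its highest Car2 level in Gsdmc/Cyp2c enterocyte-like nuclei at 277 CPM (254 to 301) and lower in the cluster led by Apol10a and Tgm3 at 207 CPM (192 to 221) and at the surface at 162 CPM (149 to 177), with 87.1 CPM (68.0 to 109.9) in mesenchymal-like nuclei. This order depends on the clustering. At resolution 2 the highest Car2 levels of WT were 682 CPM (603 to 767) in a surface cluster led by Ly6m and 575 CPM (517 to 637) in a mid-axis cluster led by Gsdmc2 and Selenbp1, and those of HIF-1α KO were 279.7 CPM (257 to 304) in a mid-axis cluster led by Gsdmc3 and 254 CPM (225 to 286) in the Ly6m cluster, with overlapping intervals in each library. The surface level of HIF-1α KO stood at a log2 ratio of 0.90 (0.54 to 1.28) over mesenchymal-like nuclei, but at 0.09 after thinning and 0.23 with each nucleus weighted equally.

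Aqp4, the water channel known from the basolateral membrane of intestinal epithelium, had its highest level in the middle. It had 617 CPM (566 to 670.5) in WT and 471 CPM (441 to 503) in HIF-1α KO Gsdmc/Cyp2c enterocyte-like nuclei, of which 71.2% and 76.2% had a UMI. The cluster led by Apol10a and Tgm3 had 465 CPM (431 to 502) and 338 CPM (320.0 to 357), and crypt enterocyte-like nuclei 511 CPM (468 to 556) and 257 CPM (237 to 279). Stem-like nuclei, at 205 CPM (169 to 248) and 172 CPM (146 to 199.9), were also above the 100.1 CPM (83.0 to 119.6) and 85.9 CPM (66.9 to 108) of mesenchymal-like nuclei. At the surface the level was down to 68.7 CPM (54.7 to 85.2) and 60.4 CPM (52.5 to 69.3), below background, except that with all barcodes used the surface was above mesenchymal-like nuclei (log2 0.42 and 0.20). From the middle to the surface Aqp4 was lower by 8.97-fold in WT and 7.80-fold in HIF-1α KO. Apart from that exception, the surface class had Aqp8 and no Aqp4 above background, and the middle of the axis had Aqp4 and no Aqp8 above background.

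Car12 (chromosome 9, 66713686 to 66766845), a transmembrane enzyme with an extracellular active site and a known target of hypoxia signaling, had 126 CPM (97.8 to 160.3) in stem-like and 83.2 CPM (70.1 to 98.2) in cycling-like nuclei of WT. Through the middle of the axis it had 64.3 CPM (49.8 to 81.7), 75.3 CPM (58.3 to 95.6) and 52.9 CPM (41.7 to 66.2), and at the surface 8.28 CPM (3.97 to 15.2). In HIF-1α KO the same order gave 39.7 CPM (28.1 to 54.6), 29.8, 27.2, 29.1 and 33.4 CPM and, at the surface, 18.2 CPM (13.9 to 23.3). Mesenchymal-like nuclei had 19.0 CPM (12.1 to 28.5) and 14.7 CPM (7.61 to 25.7), and neither surface value was above this background. In HIF-1α KO the crypt enterocyte-like level was not above it either (log2 0.88, -0.02 to 1.91). The levels of crypt base over surface were 15.2-fold apart in WT and 2.19-fold in HIF-1α KO. Outside the epithelium, enteric glia-like nuclei had 11 Car12 UMIs in 12 WT and 9 in 8 HIF-1α KO nuclei, or 359 CPM (179 to 642) and 235 CPM (107 to 446).

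At a finer clustering (resolution 2), the surface class came apart into a cluster led by Lama3 and Clca4a (165 WT and 283 HIF-1α KO nuclei) and one led by Ly6m and Ifit1bl1 (67 and 137 nuclei), which held the higher ratio of surface over stem markers. Car1 had 1163 CPM (1060.2 to 1274) and 740.4 CPM (690.5 to 793) in the Ly6m cluster against 668 CPM (610.1 to 731) and 210.5 CPM (191 to 231) in the Lama3 cluster. Car2 had 682 and 254 CPM in the Ly6m cluster against 313 and 116 CPM. Aqp8 had 249.7 CPM (203 to 304) and 504 CPM (463 to 547) against 139.8 CPM (114 to 169.8) and 195 CPM (176 to 214). Car4 had 1603 CPM (1481 to 1732) and 2160.5 CPM (2075 to 2249) against 1405 CPM (1319 to 1494) and 1296 CPM (1247 to 1346). All 4 members were higher in the Ly6m cluster in both libraries, but for Car4 in WT the intervals overlapped. This split was described after the values were seen.

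**Figure D2:**
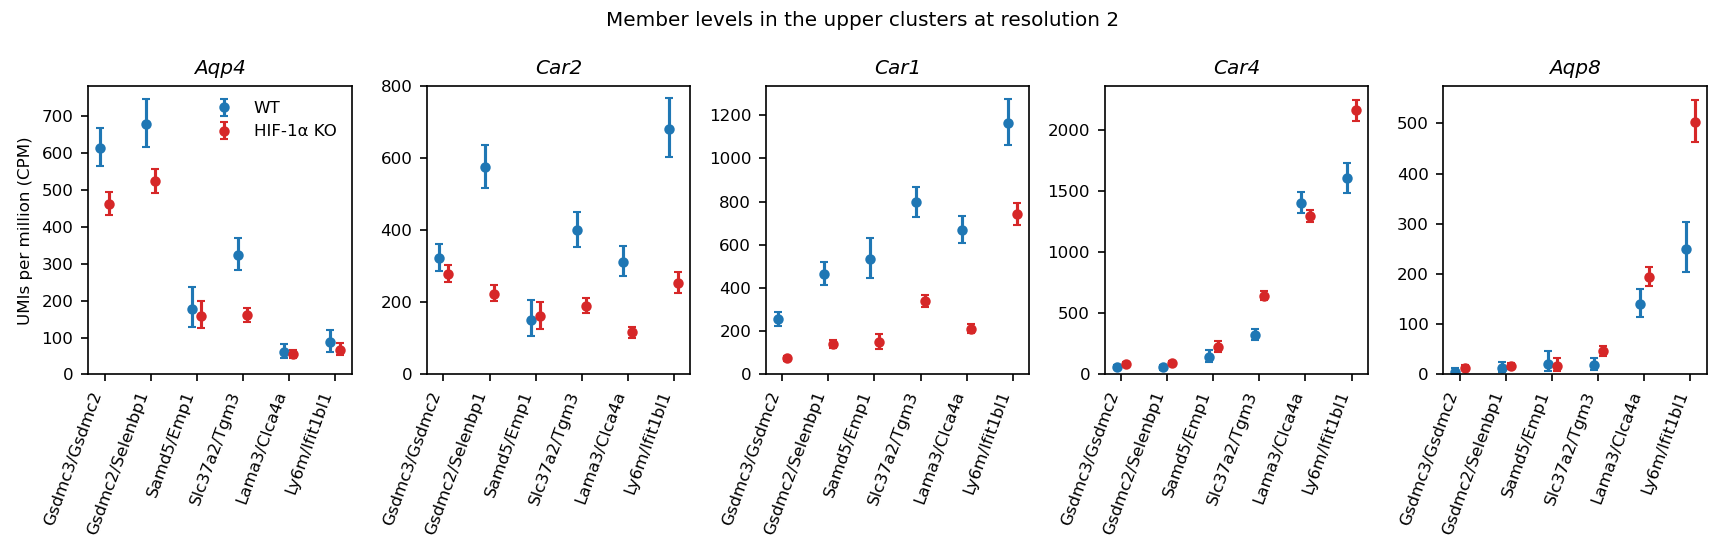
Level of 5 members in counts per 1000000 UMIs (CPM, y axis) in the 6 upper clusters at resolution 2, named by 2 of their leading genes and ordered by the ratio of surface over stem markers (x axis), for WT (blue) and HIF-1α KO (red), with exact 95% Poisson intervals. Car4 and Aqp8 are high in the last 2 clusters, at 1296 to 2160.5 CPM and 139.8 to 504 CPM, whereas Aqp4 is high in the first 2, at 463 to 680.3 CPM.

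Car8 (chromosome 4, 8143362 to 8239041), which lacks enzyme activity and is known as a binding partner of the inositol trisphosphate receptor, had its highest levels in secretory cells. Goblet-like nuclei had 118 CPM (102 to 135) in WT and 108 CPM (99.3 to 118) in HIF-1α KO, 5.26-fold and 5.89-fold over the 22.3 and 18.4 CPM of mesenchymal-like nuclei. Within them the cluster led by Clca1 and Fer1l6 had 169 CPM (141 to 201) and 127 CPM (112 to 144), the cluster led by St6gal1 and Scin 101 CPM (68.5 to 143) and 135 CPM (115 to 159), and the cluster led by Slc12a8 and Spdef, with the lowest levels, 70.3 CPM (52.1 to 92.6) and 73.2 CPM (61.5 to 86.5). Among enteroendocrine-like nuclei the small cluster led by Pappa2 and Gcg (13 WT and 31 HIF-1α KO nuclei) had 240.5 CPM (124 to 420.1) and 310.4 CPM (234 to 404), against 31.4 CPM (16.7 to 53.7) and 56.8 CPM (39.6 to 79.0) in the cluster led by Lmx1a and Piezo2. From stem-like to Gsdmc/Cyp2c enterocyte-like nuclei Car8 was not apart from background, and in the cluster led by Apol10a and Tgm3 it was below it, at 4.18 and 8.10 CPM.

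Aqp1 (chromosome 6, 55336432 to 55348555), the water channel of capillary endothelium, had 68 and 112 UMIs in all. Endothelial-like nuclei had 66.6 CPM (43.5 to 97.5) in WT and 55.3 CPM (30.2 to 92.8) in HIF-1α KO, from 26 and 14 UMIs. Lymphatic endothelial-like nuclei had 101 CPM (62.3 to 154) and 52.5 CPM (21.1 to 108), and blood endothelial-like nuclei 27.5 CPM (8.92 to 64.1) and 58.5 CPM (23.5 to 121), so the order of the vessel types could not be settled at this depth. Goblet-like nuclei had 6.22 CPM (3.10 to 11.1) and 1.63 CPM (0.703 to 3.21), and mesenchymal-like nuclei 1.65 CPM (0.200 to 5.98) and 11.0 CPM (5.05 to 21.0). In crypt base stem-like nuclei Aqp1 had 5 UMIs in WT and 13 in HIF-1α KO, or 9.42 CPM (3.06 to 22.0) and 13.6 CPM (7.24 to 23.3), not apart from mesenchymal-like nuclei in either library.

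Aqp3 (chromosome 4, 41092722 to 41098183), a channel for water and glycerol, had 0 UMIs in WT and 1 UMI in HIF-1α KO, in an immune-like nucleus. With the floor of 3 UMIs used here for a count of 0, up to 0.226 CPM is allowed over all WT nuclei, and Aqp3 was not detectable at this depth.

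**Figure D3:**
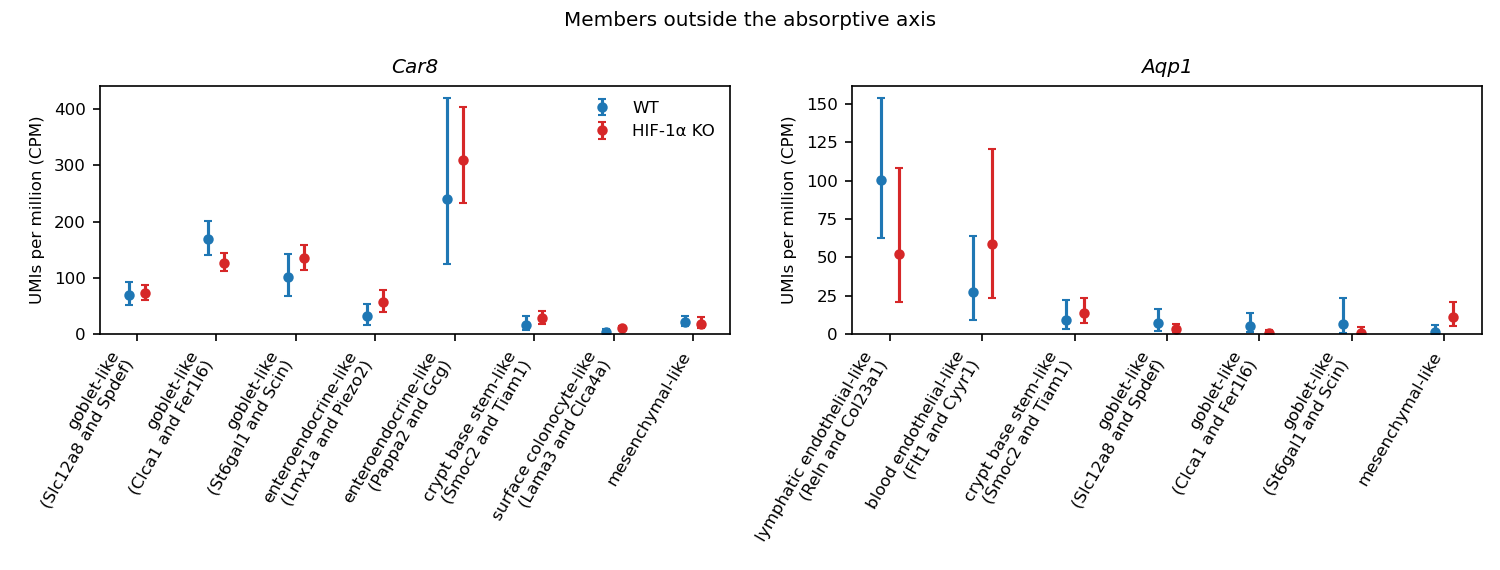
Level of Car8 (left) and Aqp1 (right) in counts per 1000000 UMIs (CPM, y axis) by cluster, with 2 leading genes in brackets (x axis), for WT (blue) and HIF-1α KO (red), with exact 95% Poisson intervals. Car8 is highest in the enteroendocrine-like cluster led by Pappa2 and Gcg (240.5 and 310.4 CPM), and Aqp1 lies above all other clusters shown in lymphatic and blood endothelial-like nuclei, although the intervals are wide.

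The course of each member over 28 points (14 classes in each of 2 libraries, which share their depth and free RNA) was set against that of all 11846 genes with at least 50 UMIs in each library, as Pearson r of log2(CPM + 10). Car4 and Aqp8 had r = 0.90 with each other, Car1 and Car2 0.72, and Aqp4 0.67 with both Car2 and Car12. The genes most like Car4 were Clca4b (0.94), Clca4a (0.92) and Smpdl3a (0.92), and those most like Aqp8 were Mt1 (0.88), Smpdl3a (0.88) and Clca4a (0.87). Car1 was nearest to Cyp2c55 (0.86), Slc9a3 (0.85), which encodes an apical sodium-hydrogen exchanger, and Anxa2 (0.85). Car2 was nearest to Agps (0.92), Ugt2b34 (0.88) and Trpm6 (0.87), a magnesium channel. For Aqp4 these were Slc1a1 (0.88), Cyp4f40 (0.87) and Zan (0.87), and for Car12 Sipa1l1 (0.77), Tfrc (0.77), the transferrin receptor, and Tonsl (0.76). Car8 had Rab27a (0.84), Anks6 (0.82) and Hepacam2 (0.78), and Aqp1 had D5Ertd615e (0.88), Kdr (0.88), a receptor for vascular endothelial growth factor, and Spns2 (0.87). These lists depend on the measure, and 4 of the 24 genes were shared with those by Spearman rho. Clca4a, Cyp2c55 and Kdr were also among the markers used to name the classes, so their likeness over these classes is not independent of the naming.

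The comparison of HIF-1α KO with WT asks how deletion in NKp46+ cells goes with the epithelium around them. Over the 6 groups of the axis, 35 pairs of a member and a class had at least 50 UMIs. In 7 of them HIF-1α KO was at least 1.5-fold higher and in 15 at least 1.5-fold lower, of which 2 and 12 were above mesenchymal-like background in at least 1 library. Of these, 9 of the 12 lower pairs and 0 of the 2 higher pairs stayed past 1.5-fold in every alternative processing that gave a value. For Car12 in stem-like nuclei no other clustering was among these. In surface colonocyte-like nuclei 2 of 6 members were at least 1.5-fold higher and 2 lower in HIF-1α KO, where 10.2% and 16.1% of 7462 genes were. The counts were 2 and 3 of 6 in the cluster led by Apol10a and Tgm3 (10.6% and 10.2% of 8228 genes), and 0 and 2 of 5 in Gsdmc/Cyp2c enterocyte-like nuclei (11.9% and 6.86% of 6896 genes). In crypt enterocyte-like nuclei they were 1 and 3 of 7 (13.1% and 7.7% of 7572 genes), in cycling-like nuclei 1 and 3 of 6 (13.0% and 7.06% of 8076 genes), and in stem-like nuclei 1 and 2 of 5 (17.6% and 6.83% of 5370 genes). Off this axis they were 2 and 3 of 7 in goblet-like (11.0% and 10.2% of 9240 genes) and 1 and 0 of 5 in enteroendocrine-like nuclei (10.4% and 6.55% of 4780 genes). In goblet-like nuclei the members were Aqp8 and Car4, higher, and Aqp4, Car1 and Car12, lower, all 5 at or below the mesenchymal-like level within their intervals (Car1 had 119 and 63.7 CPM and Car4 61.0 and 101 CPM). In mesenchymal-like nuclei, which stand for background, they were 0 and 2 of 4 (10.5% and 7.05% of 6465 genes), in endothelial-like nuclei 1 and 2 of 3 (12.4% and 8.52% of 2992 genes), and over all nuclei 2 and 2 of 8 (13.3% and 16.5% of 14393 genes).

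**Figure D4:**
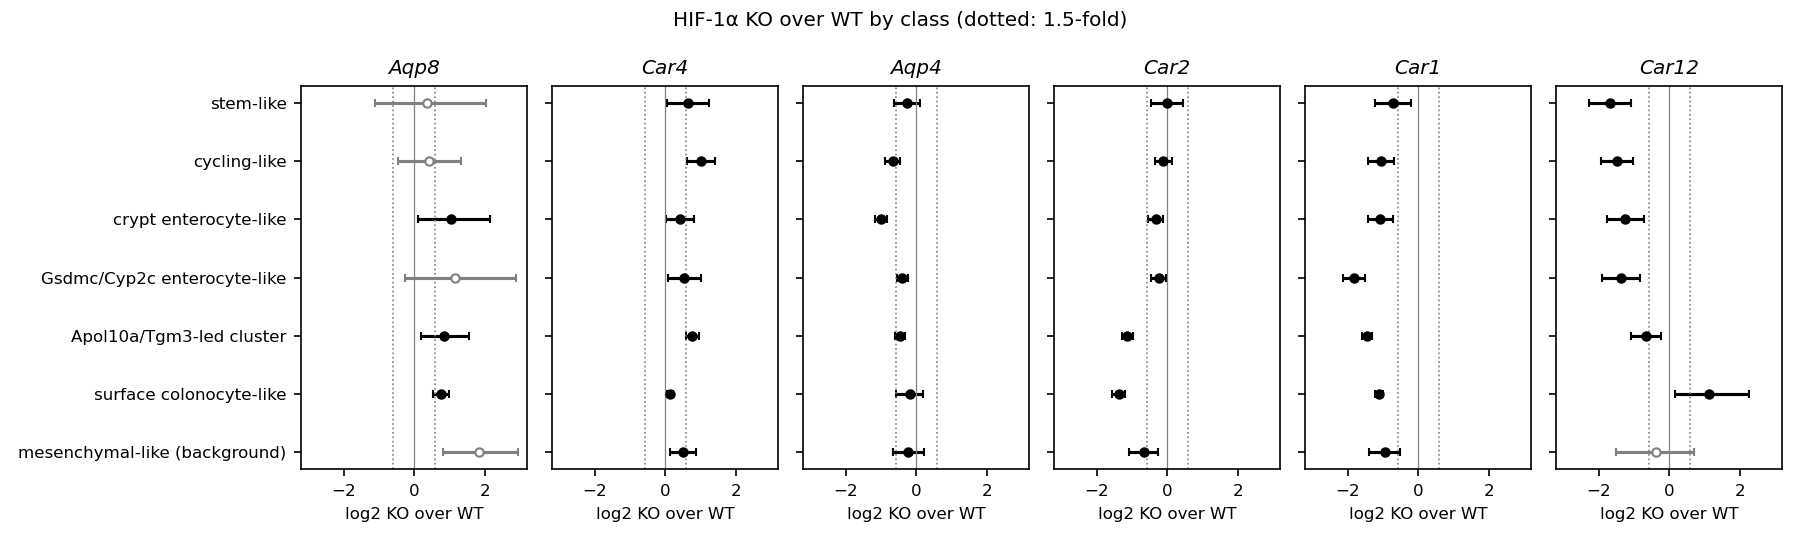
Log2 ratio of HIF-1α KO over WT (x axis) for 6 members in each class of the axis and in mesenchymal-like nuclei as background (y axis), with exact conditional 95% intervals for counting error and 1.5-fold marked by dotted lines. Open grey points rest on fewer than 50 UMIs. Car1 is lower throughout, Car12 is lower in all classes of the axis but the surface, Car2 is lower at the 2 upper positions, and Aqp8 is higher at the surface (0.76).

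The cytosolic enzymes were lower at the top of the axis in HIF-1α KO. Car1 was 815 CPM in WT and 378 CPM in HIF-1α KO surface nuclei, 2.16-fold lower (log2 -1.11, -1.23 to -0.99), 2.72-fold lower in the cluster led by Apol10a and Tgm3 (-1.44, -1.58 to -1.31) and 3.52-fold lower in Gsdmc/Cyp2c enterocyte-like nuclei (-1.82, -2.13 to -1.51). Car2 was 421 CPM in WT and 162 CPM in HIF-1α KO surface nuclei, 2.59-fold lower (-1.37, -1.55 to -1.20), and 2.18-fold lower in the cluster led by Apol10a and Tgm3 (-1.13, -1.28 to -0.97). In stem-like, cycling-like, crypt enterocyte-like and Gsdmc/Cyp2c enterocyte-like nuclei Car2 was within 1.5-fold, between log2 0.00 and -0.32. Over all settings that gave a value, it ran from -1.02 to -0.15 in Gsdmc/Cyp2c enterocyte-like and from -0.15 to 0.84 in stem-like nuclei. Both ranges reached past 1.5-fold, whereas cycling-like and crypt enterocyte-like nuclei stayed within it. At resolution 2 the ratio was -1.36 (-1.56 to -1.15) in the cluster led by Gsdmc2 and Selenbp1. In the cluster led by Gsdmc3 it was -0.21 (-0.42 to 0.01). The background moved with these genes, since Car1 was 1.92-fold lower (146 and 76.1 CPM) and Car2 1.59-fold lower (138 and 87.1 CPM) in mesenchymal-like nuclei. With the free RNA subtracted, the surface log2 ratios were -1.03 for Car1 and -1.65 for Car2, and over all settings they ran from -1.67 to -0.94 for Car1 and from -1.70 to -1.23 for Car2. At resolution 2 this range takes the Lama3 cluster alone, since the Ly6m cluster had no name there. In the Ly6m cluster the log2 ratio was -0.65 (-0.82 to -0.48) for Car1, outside that range, and -1.42 (-1.67 to -1.18) for Car2.

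The apical members had other ratios at the surface than the cytosolic enzymes. Car4 was 1378 CPM in WT and 1523 CPM in HIF-1α KO surface nuclei, a log2 ratio of 0.14 (0.06 to 0.22), and it was 1.71-fold higher in the cluster led by Apol10a and Tgm3 (0.77, 0.58 to 0.96), which was under 1.5-fold after thinning (0.46) and with each nucleus weighted equally (0.58). Its 1.55-fold and 2.02-fold higher values in stem-like and cycling-like nuclei were below the mesenchymal-like level. Aqp8 was 167 CPM in WT and 282 CPM in HIF-1α KO surface nuclei, 1.69-fold higher (0.76, 0.54 to 0.98). This ratio was under 1.5-fold without integration (0.34), at resolution 2 (0.48) and with all barcodes (0.57), and was 0.86 with free RNA subtracted. The value at resolution 2 is that of the Lama3 cluster, and in the Ly6m cluster the ratio was 1.01 (0.70 to 1.33). For Car4 these clusters had ratios of -0.12 (-0.22 to -0.01) and 0.43 (0.30 to 0.56). Mesenchymal-like nuclei had 12 and 29 Aqp8 UMIs, a log2 ratio of 1.84 (0.83 to 2.95). In crypt enterocyte-like nuclei Aqp8 was 2.08-fold higher at the level of background, and with free RNA subtracted it was lower (log2 -1.50).

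Car12 was lower in HIF-1α KO from the base upward. It was 126 CPM in WT and 39.7 CPM in HIF-1α KO stem-like nuclei, 3.18-fold lower (-1.67, -2.28 to -1.07), 2.79-fold lower in cycling-like (-1.48, -1.94 to -1.04), 2.37-fold lower in crypt enterocyte-like (-1.24, -1.76 to -0.73), 2.58-fold lower in Gsdmc/Cyp2c enterocyte-like nuclei (-1.37, -1.91 to -0.84) and 1.58-fold lower in the cluster led by Apol10a and Tgm3 (-0.66, -1.08 to -0.23). In crypt enterocyte-like nuclei the ratio was -0.35 after thinning, under 1.5-fold. In the cluster led by Apol10a and Tgm3 it was -0.25 at resolution 2 and -0.52 after thinning. There it was -0.58 with each nucleus weighted equally and -0.52 with free RNA subtracted, all under 1.5-fold. The value at resolution 2 is that of the clusters led by Slc37a2 and Tgm3 and by Samd5 and Emp1 together. Their Car12 ratios were -0.14 (-0.78 to 0.54) and -0.92 (-2.34 to 0.50). In mesenchymal-like nuclei, with 23 and 12 UMIs, the ratio was -0.37 (-1.51 to 0.70). At the surface, where neither library was above background, HIF-1α KO was 2.20-fold higher, but the ratio was 0.00 after thinning.

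Aqp4 was lower in HIF-1α KO in the lower and middle part of the axis. It was 511 CPM in WT and 257 CPM in HIF-1α KO crypt enterocyte-like nuclei, 1.98-fold lower (-0.99, -1.16 to -0.82), and 1.59-fold lower in cycling-like nuclei (-0.67, -0.89 to -0.45), where it was -0.28 after thinning and -0.54 with each nucleus weighted equally. In Gsdmc/Cyp2c enterocyte-like nuclei and in the cluster led by Apol10a and Tgm3 it was lower by less than 1.5-fold (-0.39, -0.54 to -0.23, and -0.46, -0.60 to -0.32). In stem-like nuclei (-0.26, -0.62 to 0.10) and at the surface (-0.19, -0.56 to 0.20) the interval included 0. Over all settings Aqp4 ran from -0.83 to -0.32 in the cluster led by Apol10a and Tgm3 and from -0.88 to -0.04 at the surface. Both ranges reached past 1.5-fold lower. At resolution 2 the value for that cluster is of the clusters led by Slc37a2 and Tgm3 and by Samd5 and Emp1 together. Their Aqp4 ratios were -1.02 (-1.28 to -0.75) and -0.16 (-0.71 to 0.40). Car8, outside the absorptive axis, had a log2 ratio of -0.12 (-0.35 to 0.12) in goblet-like nuclei. In enteroendocrine-like nuclei Car8 was 2.11-fold higher (1.07, 0.42 to 1.78), 53.9 and 113 CPM, and the cluster led by Pappa2 and Gcg made up 13 of the 147 nuclei of this class in WT, against 31 of 131 in HIF-1α KO. For Aqp1 in endothelial-like nuclei the ratio was -0.27 (-1.32 to 0.72).

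Several other measures were compared between the libraries. HIF-1α KO nuclei were deeper, and the surface markers had 12499 CPM in HIF-1α KO against 9519 CPM in WT surface nuclei, and 2195 against 1406 CPM in mesenchymal-like nuclei. Of 7 posterior Hox genes, which mark the distal gut, 3 had 50 UMIs in surface nuclei, with a median log2 ratio of -0.26 and Hoxa13 at least 1.5-fold higher, with an interval that included 0 (0.66, -0.11 to 1.52). In surface nuclei Hoxb13 had the most UMIs of the 3 (123 in WT and 244 in HIF-1α KO). It was lower in HIF-1α KO by less than 1.5-fold (-0.51, -0.83 to -0.18). The 3 anterior Hox genes with 50 UMIs there had a median of 0.03. In mesenchymal-like nuclei, 0 of 3 anterior Hox genes were at least 1.5-fold lower, beside 7.05% of all genes, with a median of 0.34. Over all nuclei, of which mesenchymal-like nuclei made up 10.3% in WT and 5.25% in HIF-1α KO, 4 of the 7 anterior Hox genes tested (Hoxb3, Hoxb4, Hoxb5 and Hoxb6) were at least 1.5-fold lower, beside 16.5% of all genes. All 10 hypoxia-induced genes had 50 UMIs in surface nuclei, with a median of 0.27 beside -0.10 for all genes, and 3 of them (Egln3, Ankrd37 and Pdk1) were at least 1.5-fold higher and 0 lower (10.2% and 16.1% of all genes), where the interval of Ankrd37 included 0. Egln3 had 122 CPM in WT and 261 CPM in HIF-1α KO. Among 8 genes of epithelial inflammation, 4 were tested in surface nuclei, with a median of 0.17. Of these, Nos2 was at least 1.5-fold higher, at 34.8 CPM in WT and 203 CPM in HIF-1α KO, and 0 were lower. Duox2 had a log2 ratio of 0.42 (0.28 to 0.55), Saa1, with the most UMIs, -0.08 (-0.16 to -0.003) and Duoxa2 -0.44 (-0.73 to -0.15). Over all nuclei 2 of 6 were higher (Nos2 and Duox2) and 2 lower (Saa3 and Reg3b), beside 13.3% and 16.5% of all genes. The genes named from these lists were chosen after their values were seen. The part of the colon segment, depth, free RNA and inflammation in the differences of the members was not tested.

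The partners of the members in salt uptake were read from a list of 31 other aquaporins, carbonic anhydrases and ion transporters. Of these, 17 had at least 50 UMIs, namely 1 of 8 other aquaporins (Aqp11), 5 of 11 other carbonic anhydrases and 11 of 12 ion transporters, and 3 aquaporins had 0 UMIs in both libraries. From base to surface, 10 could be compared, of which 5 were at least 2-fold higher in both libraries and 1 (Slc4a7) lower, beside 12.1% and 20.2% of 8898 genes. Slc26a3, the apical chloride-bicarbonate exchanger, had 96.1 and 141 CPM in stem-like and 1559 and 1697 CPM in surface nuclei. Slc9a3, an apical sodium-hydrogen exchanger, was at 33.9 and 18.8 CPM in stem-like and 497 and 419 CPM in surface nuclei, and already at 598 and 395 CPM in the cluster led by Apol10a and Tgm3. Atp12a, the colonic proton-potassium pump, had 64.1 and 39.7 CPM in stem-like and 1325 and 779 CPM in surface nuclei. Slc9a2 and Slc9a3r1 were the other 2.

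Between genotypes, 0 of the 10 partners tested in surface nuclei were at least 1.5-fold higher and 3 were lower, beside 10.2% and 16.1% of 7462 genes. Slc4a4, the basolateral sodium-bicarbonate cotransporter, was 369 CPM in WT and 163 CPM in HIF-1α KO surface nuclei, 2.27-fold lower (-1.18, -1.36 to -0.998). Atp12a was 1.70-fold lower (-0.77, -0.86 to -0.68), and Car9, a further membrane-bound carbonic anhydrase, had 53.0 and 30.2 CPM, 1.75-fold lower (-0.81, -1.27 to -0.34). Slc26a3 was within 1.5-fold at the surface (0.12, 0.05 to 0.20), as was Car4, and 1.54-fold higher in the cluster led by Apol10a and Tgm3 (0.62, 0.54 to 0.70). In mesenchymal-like nuclei Slc26a3 was 1.52-fold higher (149.7 and 228 CPM).

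**Figure D5:**
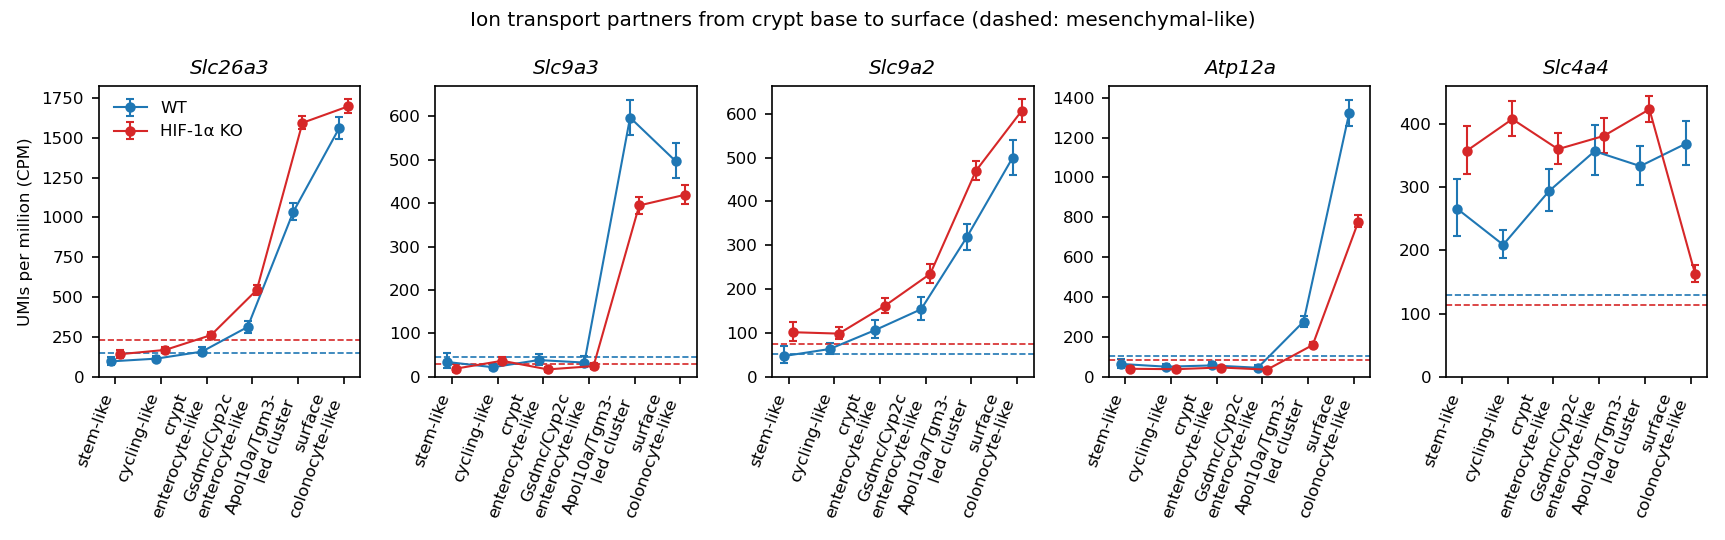
Level of 5 ion transport partners in counts per 1000000 UMIs (CPM, y axis) in the classes from crypt base to surface (x axis), for WT (blue) and HIF-1α KO (red), with exact 95% Poisson intervals and mesenchymal-like levels as dashed lines. Slc26a3, Slc9a3 and Slc9a2 are high in the upper 2 groups. Atp12a is high at the surface (1325 and 779 CPM) and at 276 and 159 CPM in the cluster led by Apol10a and Tgm3. Slc4a4 at the surface is 369 CPM in WT and 163 CPM in HIF-1α KO.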

How the data were processed

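Nuclei of colon tissue were measured in 2 libraries, 1 per genotype, each a pool of 3 animals. The authors ran Cell Ranger 7.0.1 on mm10 (GRCm38) and deposited counts of UMIs per gene and nucleus, without normalization, for the barcodes kept by the default calling. Whether intronic reads were counted is not given in the sources used here. The study's limits on nuclei were applied, at 400 to 5000 genes and at most 10% mitochondrial UMIs.

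The libraries were integrated in Seurat 5.3.0 (R 4.3.3) with 2000 variable features, minus the members and the other listed genes, 30 principal components and resolution 1. A cluster was named where at least 3 markers and 50% of a list reached a log2 ratio of 1 and 10% of nuclei, with a marker among its 10 leading genes and no fewer there than any other list. This rule was set after the data were seen. Sums and intervals were computed in Python 3.11.15 with scipy 1.17.1, and the scripts were tested on simulated data. Positions come from GENCODE M21, which held 32158 of 32285 gene identifiers. Members and lists were chosen with earlier results of these data known. Named genes were all members, companions with 50 UMIs, the 3 genes nearest to each member and listed genes by count. With 1 library per genotype there was no test. Scrublet (scanpy 1.11.5) called 1 doublet among 9586 nuclei and so did not work, and doublets remain. A summed level of red cell genes is not reported here.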

Additional observations from a re-analysis of the deposited data

Results flagged for a closer look

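For 3 genes the libraries or classes went in opposite directions, with intervals on either side of 0, and the difference itself was not tested. Slc4a4 was higher at the surface than at the crypt base in WT (log2 0.47, 0.20 to 0.76) and lower in HIF-1α KO (-1.14, -1.33 to -0.94). Between genotypes it was lower in HIF-1α KO surface nuclei (-1.18), whereas it was higher in cycling-like nuclei (0.97, 0.78 to 1.15). Car12 was higher in HIF-1α KO surface nuclei (1.14) and lower in the other 5 groups of the axis, and its surface ratio rests on 10 and 62 UMIs at the level of background. Slc9a3 was higher in HIF-1α KO cycling-like nuclei (0.75), at 21.8 and 36.7 CPM beside a background of 45.5 and 29.4 CPM, and lower in crypt enterocyte-like nuclei and in the cluster led by Apol10a and Tgm3.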

How the results depend on the processing

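No paired analysis was possible because each genotype had 1 library, and no replicate could be left out. In 736 recomputed log2 ratios of single members, 602 stayed within the counting interval of the reported value, 127 moved beyond it without turning a called direction, and 7 turned in direction. This total includes 108 ratios with the Scrublet doublet left out, which removed 1 nucleus and could hardly move any of them. With free RNA subtracted 33 of 73 ratios stayed within the interval, and after thinning 66 of 105. The turned values were Aqp8 in crypt enterocyte-like (-1.50) and goblet-like nuclei (-0.84) and Car4 in goblet-like nuclei (-0.053), HIF-1α KO over WT with free RNA subtracted. They were also Car2 in mesenchymal-like (0.21) and Car12 in surface nuclei (-0.0016), HIF-1α KO over WT after thinning, and Aqp4 at the surface over mesenchymal-like nuclei with all barcodes, 0.42 in WT and 0.20 in HIF-1α KO. With cycling-like nuclei as the crypt end, 1 member was at least 2-fold lower at the surface in both libraries, not 3. Pairs of member and class at least 1.5-fold higher in HIF-1α KO were 7, but 4 with free RNA subtracted and 15 with no minimum of UMIs. Of the 24 genes nearest to a member, 4 were shared with those by Spearman rho and 3 with those over epithelial classes. The cause of these changes was not tested. No class was named crypt base stem-like at resolution 0.5, at resolution 2, without integration or with all barcodes. Those settings thus gave no ratio from crypt base to surface, no ratio between genotypes in stem-like nuclei and no count over the axis. Members with few UMIs, such as Aqp1, are limited by depth.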
